A study of Homo sapiens with 11 samples.

Results

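PLX4720 and bevacizumab, each given alone, were compared head to head in xenografts of A375, a cell line from a human melanoma. The comparison set the 3 arrays of PLX4720-treated tumours against the 3 arrays of bevacizumab-treated tumours, 6 of the 11 human expression arrays of the study, chosen by the treatment in their labels and not by any measured value. The study implanted A375 cells under the skin of 6-week-old female CD1 athymic mice, let tumours reach 150 to 200 mm3, and assigned the mice at random to treatments that lasted 12 days. These volumes and this duration are those of the deposited labels, and the study's general methods give a larger starting volume and longer treatments. PLX4720 was given at 60 mg/kg daily by gavage in 1% methylcellulose. Bevacizumab was given at 10 mg/kg by intraperitoneal injection 3 times a week in 0.9% saline. The other 5 arrays were from tumours of mice given the methylcellulose vehicle (3 arrays) or both drugs (COMBO, 2 arrays). They entered the fit to share its estimate of the spread, and vehicle serves below as a reference level. The arms of the comparison therefore differed in drug, route, schedule and carrier at once, and no vehicle arm with injected saline was analysed here.

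PLX4720 is a small molecule that inhibits the mutant BRAF kinase of A375 cells, which otherwise signals through MEK to ERK without a growth factor. Bevacizumab is an antibody that binds human VEGF-A, the ligand that draws in and maintains blood vessels, before it reaches its receptors. In a xenograft the tumour cells are human and the vessels, fibroblasts and leukocytes are from the mouse, athymic mice lack T cells but keep myeloid cells, and these arrays carry probes for human transcripts. One drug thus acts inside the cells that the array was made to read and the other on a protein those cells release.

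Arrays detected between 19767 and 21952 of 47323 probes, and 14886 genes with a detected probe were tested. Signals are given below as log2 units after background correction and quantile normalization, so that 1 unit is a doubling. The 2 single-drug arms were the most variable of the study, with a median SD per gene of 0.445 among PLX4720 arrays and 0.336 among bevacizumab arrays, against 0.195 for vehicle and 0.159 for COMBO. PLX4720 1, PLX4720 3 and bevacizumab 1 stood apart. PLX4720 1 lay at 84.8 on the first principal component (34.1% of the variance), on which the others lay between -50.4 and 37.0. PLX4720 3 and bevacizumab 1 lay at -75.4 and -37.5 on the second (25.9%), on which the others lay between -20.3 and 29.8. PLX4720 3 correlated at 0.926 to 0.927 with its own arm and at up to 0.961 with a bevacizumab array, and PLX4720 2 at 0.927 to 0.941 and at up to 0.960. Counts are therefore also given without PLX4720 1 and without PLX4720 3 and bevacizumab 1. Of 14 markers of melanoma cells, 11 were measured. SOX10, a transcription factor of the melanocyte lineage, was detected on all 6 arrays at 10.54 to 12.30, as was MITF, the master regulator of pigment genes, at 6.03 to 7.99, whereas MLANA, TYR and S100B, which mark pigmented or neural crest-derived cells, were not detected on any array. In such bulk tumours, fewer cells of a type cannot be told apart from less RNA per cell.

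Treatment with PLX4720 gave a different expression profile from bevacizumab. Of 14886 genes, 465 (3.12%) passed an adjusted p below 0.05 in limma's moderated test with Benjamini-Hochberg adjustment, 310 of them higher (2.08%) and 155 lower (1.04%) under PLX4720. The 3 PLX4720 arrays did not overlap the 3 bevacizumab arrays for any of the 465, whereas over all genes the arms did not overlap for 2455 (16.5%). Since every called gene was apart in this way, non-overlap of a called gene, here and below, describes the call and adds no support. The median difference was 1.80 log2 units (3.48-fold) among the higher genes and -1.57 (2.98-fold) among the lower, against 0.06 over all genes tested. At the limits named in the study's methods, a log2 difference of at least 1 with an unadjusted p below 0.01, 824 genes (5.54%) passed, 556 higher and 268 lower. Scaling arrays to a common median in place of quantile normalization moved the median of all genes to 0.24 and the higher share of calls from 66.7% to 81.5% (370 higher, 84 lower). A fit on the 6 single-drug arrays alone, without the tighter vehicle and COMBO arms, called 70 genes (47 higher, 23 lower), leaving out PLX4720 1 gave 209, and leaving out PLX4720 3 and bevacizumab 1 gave 847, of which 387 were among the 465. The count of called members of each gene list below is to be read against 2.08% higher and 1.04% lower over all genes.

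**Figure D1:**
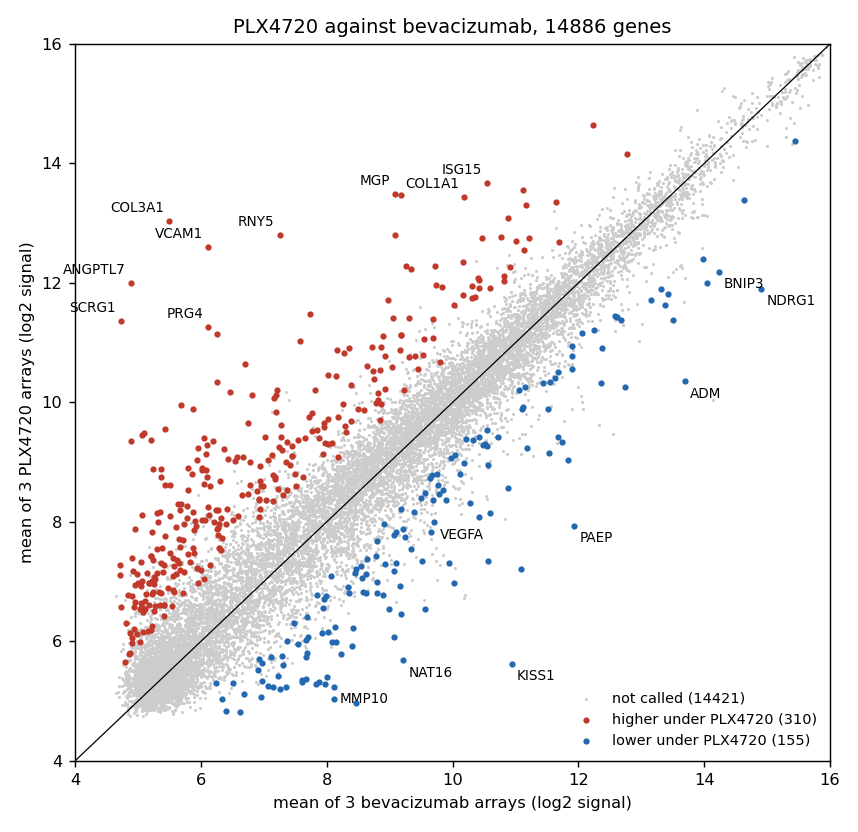
Mean log2 signal of 14886 genes on the 3 bevacizumab arrays (horizontal axis) and the 3 PLX4720 arrays (vertical axis), with the line of equal signal. The 310 genes called higher under PLX4720 (red) lie above the line, COL3A1 and VCAM1 among them, and the 155 called lower (blue) below it, KISS1 among them.

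Vehicle tumours placed most of these differences on the PLX4720 side. The vehicle mean lay nearer the bevacizumab mean for 297 of the 310 higher genes and for 142 of the 155 lower genes. In the same fit, PLX4720 against vehicle called 339 genes (212 higher, 127 lower), and bevacizumab against vehicle called 0, with 353 genes at an unadjusted p below 0.05. The means of the drugs stood on opposite sides of the vehicle mean for 230 of the higher and 118 of the lower genes. For the other 80 and 37 genes the bevacizumab mean lay between those of vehicle and PLX4720. These comparisons share arrays, so the values against vehicle below are a description and not further evidence.

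COL3A1 and VCAM1 were among the genes with the largest excess under PLX4720. COL3A1, the chain of type III collagen, had signals of 14.37, 12.90 and 11.82 under PLX4720 and of 5.40, 5.82 and 5.27 under bevacizumab, with vehicle at 7.39 to 9.20. The arms were far apart, and the probe was detected on 1 of 3 bevacizumab arrays. The difference was 7.54 ± 0.65 (SE from the fit to all arms, means of 3 arrays against 3, adjusted p = 0.000399). Each ± value in the text is such an SE, with a spread shared with the vehicle and COMBO arms, which were tighter by median SD. It is therefore not the spread of the compared arrays alone, and can understate it where the single-drug arrays vary more. VCAM1, an adhesion molecule for leukocytes, was at 13.69, 12.27 and 11.86 against 6.04, 5.98 and 6.32, a difference of 6.49 ± 0.42 (90.1-fold, adjusted p = 5.74e-05). Its 3 probes all differed in this direction, by 6.49, 4.17 and 3.75. Against vehicle, COL3A1 stood at 5.01 under PLX4720 and -2.53 under bevacizumab, and VCAM1 at 4.87 and -1.62, so both drugs' means lay on opposite sides of vehicle.

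ANGPTL7, a secreted relative of the angiopoietins, was at 12.26, 13.19 and 10.56 under PLX4720 and below background on every bevacizumab and vehicle array, at least 75.7-fold higher than under bevacizumab (adjusted p = 0.000419). SCRG1, a small secreted protein, was at 12.20, 10.28 and 11.61 and likewise below background on the bevacizumab arrays, at least 48.6-fold higher (adjusted p = 5.74e-05). Such a bound sets the PLX4720 mean against the lowest signal that counted as detected. RNY5, one of the small noncoding Y RNAs, was at 12.92, 12.63 and 12.88 against 8.49, 7.0 and 6.28, a difference of 5.55 ± 0.52 (adjusted p = 0.000445). Its PLX4720 arrays were alike and its bevacizumab arrays were not. How well the amplification and labelling of the RNA captured so small a noncoding RNA was not tested. PRG4, the lubricating proteoglycan lubricin, was at 12.17, 10.78 and 10.81 against 5.53, 5.63 and 7.20 (5.14 ± 0.64, adjusted p = 0.00265), and was detected on 1 of 3 bevacizumab arrays.

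MGP, an inhibitor of calcification in matrix, was at 13.70, 13.59 and 13.18 against 10.13, 9.01 and 8.13 (4.40 ± 0.51, adjusted p = 0.00204). LUM, the collagen-binding proteoglycan lumican, was at 10.19, 9.88 and 9.82 against 5.45, 6.17 and 5.43 (4.28 ± 0.39, adjusted p = 0.000445). NTS, the precursor of the peptide neurotensin, was at 11.37, 9.97 and 12.10 against 7.68, 5.61 and 5.46 (4.90 ± 0.95, adjusted p = 0.0214). LUM and NTS were each detected on 1 of 3 bevacizumab arrays. IFI27, an interferon-induced gene, was at 13.61, 13.18 and 13.64 against 9.63, 8.95 and 8.96 (4.30 ± 0.85, adjusted p = 0.0225). In vehicle tumours IFI27 ran from 5.21 to 9.76 and NTS from 5.34 to 9.04, so these genes varied widely without either drug. NTS was no longer called without PLX4720 1, bevacizumab 2 or bevacizumab 3 (adjusted p = 0.071, 0.0932 and 0.0835), nor IFI27 without any of these (0.071, 0.0932 and 0.0806), without bevacizumab 1 (0.0505), or without PLX4720 3 and bevacizumab 1 together (0.0677).

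Among the genes lower under PLX4720, KISS1 differed most. KISS1, the precursor of kisspeptin, a peptide first known as a suppressor of melanoma metastasis, was below background on all 3 PLX4720 arrays, at 10.93, 11.04 and 10.85 under bevacizumab, and at least 35.5-fold lower under PLX4720 (adjusted p = 0.000399). It was detected on all 3 vehicle arrays, at 8.90 to 11.07. PAEP, the secreted glycoprotein glycodelin, was at 7.09, 6.83 and 9.88 against 11.80, 11.99 and 12.00, a difference of -4.00 ± 0.63 (adjusted p = 0.00861). A dimmer PAEP probe gave -3.43. DEPP1, a regulator of autophagy, was at 5.89, 6.85 and 8.88 against 11.43, 10.93 and 10.92 (-3.88 ± 0.58, adjusted p = 0.00691). For both genes PLX4720 3 was the array nearest to bevacizumab.

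NAT16, an acetyltransferase, was at 6.06, 4.99 and 6.00 against 9.47, 8.74 and 9.42 (-3.53 ± 0.34, adjusted p = 0.000541). ZP1, a gene of the egg coat, was at 6.75, 6.44 and 8.84 against 10.55, 10.55 and 10.56 (-3.21 ± 0.49, adjusted p = 0.00773). DYSF, the membrane repair protein dysferlin, was at 6.52, 5.88 and 8.53 against 10.25, 10.05 and 9.79 (-3.05 ± 0.58, adjusted p = 0.0195). VSTM1, an immune receptor, differed by -3.01 ± 0.51 (adjusted p = 0.0119), and TIE1, an endothelial receptor, by -2.98 ± 0.58 (adjusted p = 0.0225). TIE1 was detected on 1 of 3 PLX4720 arrays, and NAT16 and VSTM1 on 2 of 3. In ZP1, DYSF, VSTM1 and TIE1 the highest PLX4720 array was again PLX4720 3. IPO7, a nuclear import receptor, was at 7.11, 6.97 and 6.27 against 8.77, 9.21 and 8.70 (-2.11 ± 0.27, adjusted p = 0.00265). Against vehicle IPO7 stood at -2.91 under PLX4720 and -0.79 under bevacizumab. The calls of DYSF and TIE1 were lost without PLX4720 1 or any 1 bevacizumab array (adjusted p = 0.0581 to 0.0802), and that of VSTM1 without bevacizumab 2 or 3 (0.054 and 0.0511).

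**Figure D2:**
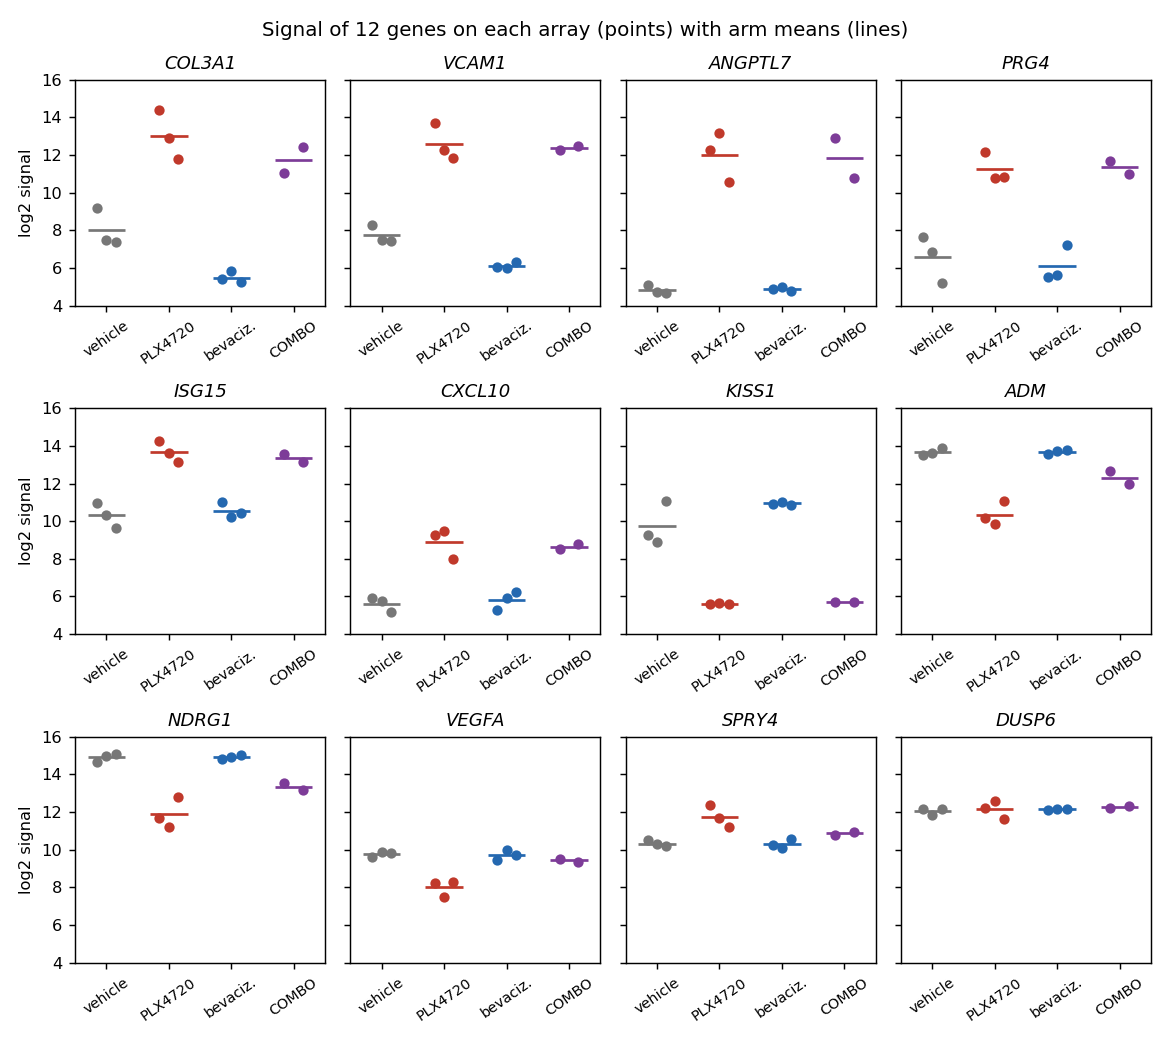
Log2 signal of 12 genes on each of the 11 arrays (points) by arm, with arm means (lines). PLX4720 points (red) lie clear of bevacizumab points (blue) for each gene but DUSP6, while the bevacizumab and vehicle points of ADM, NDRG1 and VEGFA lie together.

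VEGFA, the ligand that bevacizumab binds, was lower under the BRAF inhibitor than under the antibody. Its signals were 8.21, 7.47 and 8.29 under PLX4720 and 9.45, 9.98 and 9.70 under bevacizumab, beside 9.63, 9.88 and 9.84 in vehicle tumours. Every PLX4720 array lay below every bevacizumab and vehicle array. The difference between the drugs was -1.72 ± 0.26 (3.29-fold, adjusted p = 0.00688), and a dimmer probe gave -1.41. Against vehicle VEGFA stood at -1.79 under PLX4720 and -0.07 under bevacizumab. The VEGFA call was lost in the fit on the 6 single-drug arrays alone (adjusted p = 0.0914).

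The 6 other measured ligands and receptors of the VEGF family did not pass the test. VEGFB differed by -0.28 ± 0.21, VEGFC, the ligand for lymphatic vessels, by 0.33 ± 0.29, the placental growth factor PGF by -0.12 ± 0.43 and VEGFD, a second lymphatic ligand, by -0.11. The coreceptors NRP1 and NRP2 differed by 0.48 ± 0.37 and 0.41 ± 0.46. Dimmer probes gave -0.11 for NRP1 and -1.12, -0.49 and -0.23 for NRP2, and the sign of NRP2 held in 16 of 24 alternatives. For each of these genes the arrays of the 2 arms overlapped. The receptors FLT1, KDR and FLT4, which are known from endothelium, were not detected on any array.

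Genes induced by low oxygen were lower under PLX4720. They are transcribed by the HIF factors, which are stable when oxygen is short. Of 33 measured genes of this list, 17 were lower and 0 higher (percent called over all genes 1.04 and 2.08), with a median of -1.21 against 0.06 over all genes. The 3 PLX4720 arrays had list medians of -1.08, -1.18 and -1.05 relative to the vehicle mean, and the 3 bevacizumab arrays -0.06, 0.15 and 0.11. Each PLX4720 array thus lay below all others, and the bevacizumab arrays lay at the vehicle level.

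ADM, the vasodilator peptide adrenomedullin, was at 10.15, 9.84 and 11.07 under PLX4720 and at 13.59, 13.72 and 13.77 under bevacizumab (-3.34 ± 0.31, 10.1-fold, adjusted p = 0.000456). NDRG1, a stress-induced gene, was at 11.70, 11.20 and 12.78 against 14.82, 14.91 and 15.002 (-3.01 ± 0.34, 8.06-fold, adjusted p = 0.00198). HILPDA, a lipid droplet protein, was at 9.04, 9.20 and 8.88 against 11.40, 12.04 and 12.07 (-2.80 ± 0.28, adjusted p = 0.000591). The bevacizumab arrays of all 3 genes stood beside the vehicle arrays, with bevacizumab differing from vehicle by 0.01, 0.01 and 0.33. BNIP3, which acts in mitophagy, was at 11.90, 12.08 and 12.59 against 14.13, 14.37 and 14.18 (-2.04 ± 0.26, adjusted p = 0.00265), and VLDLR, a lipoprotein receptor, at 6.80, 6.46 and 7.14 against 8.59, 8.82 and 9.01 (-2.00 ± 0.26, adjusted p = 0.00284). LOX, the collagen crosslinking enzyme that low oxygen induces, was detected on 1 PLX4720 and 2 bevacizumab arrays and differed by -0.51 ± 0.52. The 17 became 9 without bevacizumab 2, 8 without bevacizumab 3, 11 without PLX4720 1, 21 without PLX4720 3 and bevacizumab 1, and 6 in the fit on 6 arrays.

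The promoters of 3 of these genes are shown because HIF factors bind DNA at a short core that ends in CGTG, and its form ACGTG is in capitals where it occurs on either strand. Each runs over 300 bases around the annotated start, in RefSeq on GRCh38.p14, for ADM (chr11:10304823-10305122, plus strand), BNIP3 (chr10:131981874-131982173, minus strand) and VLDLR (chr9:2621537-2621836, plus strand).
ADM: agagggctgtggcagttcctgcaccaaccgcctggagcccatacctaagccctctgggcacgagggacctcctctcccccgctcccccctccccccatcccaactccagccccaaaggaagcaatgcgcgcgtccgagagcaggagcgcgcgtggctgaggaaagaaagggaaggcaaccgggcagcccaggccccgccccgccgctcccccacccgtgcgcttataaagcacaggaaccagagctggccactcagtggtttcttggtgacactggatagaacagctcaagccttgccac
BNIP3: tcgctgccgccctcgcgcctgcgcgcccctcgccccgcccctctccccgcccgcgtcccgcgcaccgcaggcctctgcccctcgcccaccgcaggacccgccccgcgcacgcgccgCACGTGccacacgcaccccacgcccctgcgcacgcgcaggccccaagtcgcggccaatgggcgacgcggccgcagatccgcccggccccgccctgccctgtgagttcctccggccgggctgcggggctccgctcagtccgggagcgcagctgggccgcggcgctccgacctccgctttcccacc
VLDLR: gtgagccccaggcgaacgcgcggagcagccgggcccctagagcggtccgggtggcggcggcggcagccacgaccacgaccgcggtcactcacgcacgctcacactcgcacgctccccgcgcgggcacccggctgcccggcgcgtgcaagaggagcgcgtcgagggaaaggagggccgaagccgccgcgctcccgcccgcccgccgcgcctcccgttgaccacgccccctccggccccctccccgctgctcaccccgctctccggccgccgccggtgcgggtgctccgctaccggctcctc
The BNIP3 promoter held 1 place, CACGTG, which reads the same on both strands and so counts as 2 matches, and the other 2 windows held 0 of this form. The form GCGTG, which is not in capitals, occurred 1 time in ADM, 4 times in BNIP3 and 5 times in VLDLR. Of the 33 measured genes, 25 had a promoter in the table and 13 of these (52.0%) held ACGTG, against 5900 of 27305 promoters (21.6%). Among called members 6 of 13 held it, and among members not called 7 of 12. The second form was searched after seeing the data. Either form was in 21 of the 25 (84%), against 48.4% of all promoters, and in 11 of 13 called and 10 of 12 uncalled members. A match is not evidence of binding.

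In glycolysis, the pathway that splits glucose and that HIF also drives, 5 of 18 measured genes were lower and 0 higher (1.04% and 2.08% over all genes), with a median of -0.75. ALDOC, an aldolase, was at 11.72, 11.81 and 12.47 against 14.07, 14.10 and 13.98 (-2.05 ± 0.28, adjusted p = 0.00435). ENO2, an enolase, was at 10.69, 8.94 and 11.14 against 12.67, 12.70 and 12.85 (-2.48 ± 0.46, adjusted p = 0.017), and the glucose transporter SLC2A1 at 11.50, 11.08 and 12.34 against 13.59, 13.26 and 13.30 (-1.75 ± 0.34, adjusted p = 0.0214). PGK1, which makes ATP in this pathway, differed by -1.24 ± 0.22 (adjusted p = 0.0158), and HK2, the first enzyme, by -1.12 ± 0.25 (adjusted p = 0.0331). No array of either arm overlapped the other for these 5 genes. Without bevacizumab 2 or 3 only ALDOC of this list was called, with adjusted p = 0.0694 to 0.12 for the other 4, and without PLX4720 3 and bevacizumab 1 the count was 8. SLC2A1 and PGK1 were also lost without PLX4720 1 (0.0695 and 0.0505), SLC2A1 without bevacizumab 1 (0.0612), and HK2 without that array (0.0608), PLX4720 3 (0.0506) or any vehicle array (0.0537 to 0.0639). Under median scaling SLC2A1 and HK2 were not called (0.0746 and 0.19).

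Genes that ERK induces had the median of all genes, and 3 of them were called, all higher under PLX4720. BRAF signals through ERK, and transcripts such as DUSP6, SPRY4 and ETV5 are the usual readout of its activity. Of 34 measured genes, 3 were higher and 0 lower (2.08% and 1.04% over all genes), with a median of 0.06. The arms did not overlap for 11 of the 34, against 16.5% over all genes. DUSP6, a phosphatase of ERK, was at 12.23, 12.56 and 11.64 under PLX4720 and at 12.13, 12.15 and 12.14 under bevacizumab, a difference of 0.00 ± 0.25. The PLX4720 arrays lay on both sides of the bevacizumab arrays. A dimmer DUSP6 probe gave -0.78 ± 0.54. ETV5, an ETS factor, differed by 0.12 ± 0.19, ETV4 by -0.10 ± 0.50, CCND1, the G1 cyclin, by 0.16 ± 0.30 and FOSL1, an AP-1 subunit, by -1.07 ± 0.45. None of these 4 passed, and the arms overlapped for each. How long after the last dose the tumours were taken is not given in the sources used here.

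The 3 called members were feedback inhibitors or early response genes, and they were higher under the inhibitor. SPRY4, an inhibitor of receptor signalling to ERK, was at 12.38, 11.67 and 11.18 against 10.27, 10.09 and 10.55 (1.44 ± 0.29, adjusted p = 0.0249). The dimmer probes of SPRY4 gave -0.13 and 0.03. SPRY1, of the same family, was at 12.67, 12.00 and 11.17 against 10.27, 10.52 and 10.15 (1.63 ± 0.33, adjusted p = 0.0251), and a dimmer SPRY1 probe gave 1.81. EGR3, an early response factor, was not detected under bevacizumab and at 7.11, 6.30 and 6.58 under PLX4720, an excess of at least 1.87-fold (adjusted p = 0.00888). A dimmer EGR3 probe gave 0.12. SPRY2 differed by 1.21 ± 0.37 and was not called (adjusted p = 0.12), although its arms did not overlap. DUSP4, another ERK phosphatase, was at 4.59, 9.60 and 5.97 against 10.80, 10.15 and 9.59, so that PLX4720 2 stood with bevacizumab and the other 2 arrays far below (-3.46 ± 0.96, adjusted p = 0.0882). The other DUSP4 probe gave -0.68. With PLX4720 2 left out, DUSP4 was called lower (-4.92, adjusted p = 0.000753). Without PLX4720 1 SPRY4 and SPRY1 were not called (adjusted p = 0.0587 and 0.0634). EGR3 was then read from its other probe, which had become the brighter, and was not called (0.953), but it was called with its probe kept (1.49 ± 0.27, adjusted p = 0.0307). That last setting was chosen after seeing the data. In addition, without any 1 bevacizumab array SPRY4 and SPRY1 were not called (0.0617 to 0.108). The SPRY4 call was also lost with the mean over its probes (0.437). Without PLX4720 3 and bevacizumab 1, 4 were higher and 3 lower, SPRY2 (adjusted p = 0.00783) and FOSL1 (0.0223) among them.

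Interferon-stimulated genes were higher under PLX4720. These genes answer interferon through STAT factors and encode antiviral effectors. Of 45 measured, 23 were higher and 0 lower (percent called over all genes 2.08 and 1.04), with a median of 1.71. List medians relative to vehicle were 2.44, 2.04 and 1.05 on the PLX4720 arrays and 0.19, 0.14 and 0.12 on the bevacizumab arrays. All 3 PLX4720 arrays were above all bevacizumab arrays, and PLX4720 3 was the lowest of them.

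ISG15, a ubiquitin-like antiviral protein, was at 14.23, 13.64 and 13.17 under PLX4720 and at 11.01, 10.20 and 10.44 under bevacizumab (3.13 ± 0.38, 8.75-fold, adjusted p = 0.00237). RSAD2, the antiviral enzyme viperin, was at 8.96, 8.74 and 7.19 against 6.04, 5.62 and 5.39 (2.61 ± 0.42, adjusted p = 0.00888) and was detected on 1 of 3 bevacizumab arrays. IFI6, an inhibitor of apoptosis and viral replication, was at 15.42, 14.67 and 13.86 against 12.38, 12.24 and 12.06 (2.42 ± 0.41, adjusted p = 0.0114). In RSAD2 and IFI6 the bevacizumab arrays were close together and PLX4720 3 was nearest to them. IFIT2, which binds viral RNA, was at 10.43, 10.20 and 8.34 against 6.62, 6.67 and 6.97 (2.90 ± 0.49, adjusted p = 0.0119), and OAS3, which makes the activator of RNase L, at 11.54, 10.55 and 10.53 against 9.24, 9.10 and 9.18 (1.71 ± 0.30, adjusted p = 0.0151). Without bevacizumab 2 or 3 the 23 became 3 or 4, with IFI6 and OAS3 lost in both cases and IFIT2 without bevacizumab 2 (adjusted p = 0.0526 to 0.0673). With the mean over probes IFI6 and OAS3 were not called (0.0893 and 0.0934). The count was 8 without PLX4720 1, 14 without bevacizumab 1, 37 without PLX4720 3, 35 without PLX4720 3 and bevacizumab 1, and 2 in the fit on 6 arrays. The list median stayed between 1.30 and 2.17 over all 24 alternatives.

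Promoters of ISG15, RSAD2 and IFI6 are shown because interferon-activated factors bind a repeat of GAAA, searched here as GAAA, any 2 bases and GAAA on either strand and set in capitals. They are from RefSeq on GRCh38.p14, at chr1:1013247-1013546 (plus strand), chr2:6865635-6865934 (plus strand) and chr1:27672143-27672442 (minus strand).
ISG15: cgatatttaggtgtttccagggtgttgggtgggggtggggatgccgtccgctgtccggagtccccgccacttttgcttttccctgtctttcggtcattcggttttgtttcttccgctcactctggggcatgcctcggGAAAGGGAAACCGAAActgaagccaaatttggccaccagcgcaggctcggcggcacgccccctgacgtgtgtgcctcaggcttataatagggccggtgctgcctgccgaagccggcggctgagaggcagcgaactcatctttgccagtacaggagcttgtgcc
RSAD2: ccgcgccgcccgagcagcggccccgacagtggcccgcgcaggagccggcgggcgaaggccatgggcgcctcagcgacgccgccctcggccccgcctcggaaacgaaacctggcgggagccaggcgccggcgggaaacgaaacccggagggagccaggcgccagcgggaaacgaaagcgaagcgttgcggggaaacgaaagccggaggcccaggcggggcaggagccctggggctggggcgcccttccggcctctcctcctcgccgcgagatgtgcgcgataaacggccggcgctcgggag
IFI6: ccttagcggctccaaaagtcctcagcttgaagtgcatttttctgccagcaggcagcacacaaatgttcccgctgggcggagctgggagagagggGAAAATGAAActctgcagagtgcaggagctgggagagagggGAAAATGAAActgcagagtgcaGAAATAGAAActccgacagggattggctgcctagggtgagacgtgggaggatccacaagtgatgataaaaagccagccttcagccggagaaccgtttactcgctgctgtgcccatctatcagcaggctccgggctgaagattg
ISG15 held 2 overlapping matches, IFI6 held 3 and RSAD2 held 0. The RSAD2 window does hold GAAA repeats with a single base between them, a form that was not searched. Of the 45 measured genes, 35 had a promoter in the table and 23 of these (65.7%) held the searched form, against 996 of 27305 promoters (3.65%). It stood in 12 of 18 called members and in 11 of 17 members not called.

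Of 27 measured cytokines and chemokines, 5 were higher and 1 lower under PLX4720, with a median of 0.39 and 21 that did not pass. CXCL10, which attracts T cells and is itself induced by interferon, was at 9.27, 9.46 and 7.98 against 5.27, 5.92 and 6.21 (3.10 ± 0.40, 8.59-fold, adjusted p = 0.00275). CCL2, which attracts monocytes, was at 12.17, 10.92 and 11.36 against 7.80, 7.96 and 7.42 (3.75 ± 0.66, 13.5-fold, adjusted p = 0.0151). CX3CL1, the membrane-bound chemokine fractalkine, differed by 1.98 ± 0.32 (adjusted p = 0.00973) and CXCL1, which attracts neutrophils, by 1.31 ± 0.27 (adjusted p = 0.0251). IL11, a cytokine of the interleukin-6 family, was at 8.27, 10.34 and 9.64 against 11.73, 11.49 and 11.80 (-2.26 ± 0.46, adjusted p = 0.0263). CCL2, CXCL1 and IL11 were each lost without PLX4720 1 (adjusted p = 0.0569, 0.0835 and 0.0529) and without bevacizumab 2 (0.0564, 0.108 and 0.0842), CCL2 and IL11 without bevacizumab 3 (0.0632 and 0.0927), CXCL1 and IL11 without bevacizumab 1 (0.0639 and 0.0696), and IL11 without vehicle 1 or vehicle 2 (0.05 and 0.0506). IL11 was also not called without PLX4720 3 and bevacizumab 1 (0.0686). The 5 higher genes became 2 without PLX4720 1 or bevacizumab 2 and 3 without bevacizumab 3.

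Of 22 antigen presentation genes only HLA-DMB, which loads peptides onto class II molecules, was called, at 8.65, 8.02 and 7.84 against 6.77, 4.98 and 5.85 (2.30 ± 0.41, adjusted p = 0.0151; list median 0.60). It was lost without PLX4720 1, bevacizumab 2 or bevacizumab 3 (0.0571, 0.0522 and 0.0585). Of 24 NF-kB targets, VCAM1 and CXCL1 were called (median 0.58), and of 12 complement genes CFI, a protease that inactivates complement, at 11.87, 11.03 and 10.50 against 9.35, 9.01 and 9.17 (1.95 ± 0.31, adjusted p = 0.0086; median 0.16).

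Of 24 measured collagens 9 were higher under PLX4720 and 0 lower (2.08% and 1.04% over all genes), with a median of 0.93, or 0.82 with undetected members at their bounds. COL1A1, the chain of type I collagen, was at 13.56, 12.95 and 13.82 under PLX4720 and at 10.81, 9.93 and 9.83 under bevacizumab (3.25 ± 0.48, 9.54-fold, adjusted p = 0.00619). COL1A2, its partner chain, was at 10.16, 9.63 and 8.26 and below background on all bevacizumab arrays, at least 12.0-fold higher (adjusted p = 0.000698). COL5A2, of the fibril-forming type V collagen, was at 13.57, 12.61 and 12.08 against 10.31, 10.70 and 10.38 (2.29 ± 0.37, adjusted p = 0.00919). Vehicle tumours lay between the drugs for all 3, with the bevacizumab mean at -0.78 from vehicle for COL1A1, whose bevacizumab and vehicle arrays overlapped, and at -0.91 for COL5A2, neither called. COL15A1, of basement membranes, was higher by at least 1.71-fold (adjusted p = 0.0146) and lost without bevacizumab 2 or 3 (0.0708 and 0.057). The 9 became 5 without PLX4720 1 or bevacizumab 2, 4 without bevacizumab 3, 6 without vehicle 1 or bevacizumab 1, 8 without PLX4720 3 and bevacizumab 1, and 3 in the fit on 6 arrays.

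Among matrix glycoproteins and proteoglycans 13 of 38 were higher and 0 lower, with a median of 0.89. Besides PRG4, MGP and LUM they included POSTN, the matricellular protein periostin, which was at 8.97, 10.04 and 9.43 under PLX4720 and below background under bevacizumab, at least 13.2-fold higher (adjusted p = 0.000399). DCN, the proteoglycan decorin, was at 9.42, 10.02 and 8.62 against 6.16, 6.12 and 6.31 (3.15 ± 0.38, adjusted p = 0.00228), but its 3 dimmer probes gave 0.83, -0.31 and 0.39, and the mean over its probes was not called (adjusted p = 0.132). TNC, tenascin C, was at 14.11, 12.70 and 13.11 against 11.05, 11.11 and 11.34 (2.14 ± 0.33, adjusted p = 0.00812). The arms were apart for all 3 genes, with POSTN also low in vehicle tumours (4.91 to 6.03). Without PLX4720 3 and bevacizumab 1, 13 were again higher, and the fit on 6 arrays called 7.

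Enzymes that cut or crosslink matrix moved both ways, 4 of 30 higher and 4 lower (2.08% and 1.04% over all genes), with a median of 0.23. MMP10, a stromelysin, was below background on all PLX4720 arrays, at 8.07, 8.14 and 8.16 under bevacizumab, and at least 5.02-fold lower (adjusted p = 0.000445). MMP13, a collagenase, was below background under bevacizumab and at 8.91, 7.26 and 7.46 under PLX4720, at least 4.34-fold higher (adjusted p = 0.0161). These metalloproteinases were thus each detected under only 1 of the drugs. PLAT, the tissue plasminogen activator, differed by 2.22 ± 0.34 (adjusted p = 0.00703), and CTSK, the collagen-degrading cathepsin K, by 1.63 ± 0.31 (adjusted p = 0.0188). P4HA1, which hydroxylates collagen and is also on the hypoxia list, differed by -1.20 ± 0.25 (adjusted p = 0.028). MMP13, CTSK and P4HA1 were not called without bevacizumab 2 or 3 (adjusted p = 0.0585 to 0.116), nor P4HA1 without PLX4720 1 (0.0667), vehicle 1 (0.0555) or vehicle 2 (0.0522).

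Fibroblast markers moved with the matrix genes, and 6 of them are members of those lists. Of 12 measured, 7 were higher and 0 lower, with a median of 2.40. Relative to vehicle the list median was 2.31, 1.85 and 1.35 on the PLX4720 arrays and -0.43, -0.53 and -0.45 on the bevacizumab arrays. The summed linear signal of the 12 was 62200 to 80500 under PLX4720, 37400 to 57400 under bevacizumab and 44500 to 62400 in vehicle tumours, and THY1 and DPT, further markers of fibroblasts, were not detected on any array. The part of fibroblast content in the matrix result was not tested, nor was the part of mouse transcripts in the signal of these human probes. The 7 were 7 or 8 with any 1 array left out and 8 without PLX4720 3 and bevacizumab 1. With the mean over each gene's probes the list median was 1.03 and 5 were higher.

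**Figure D3:**
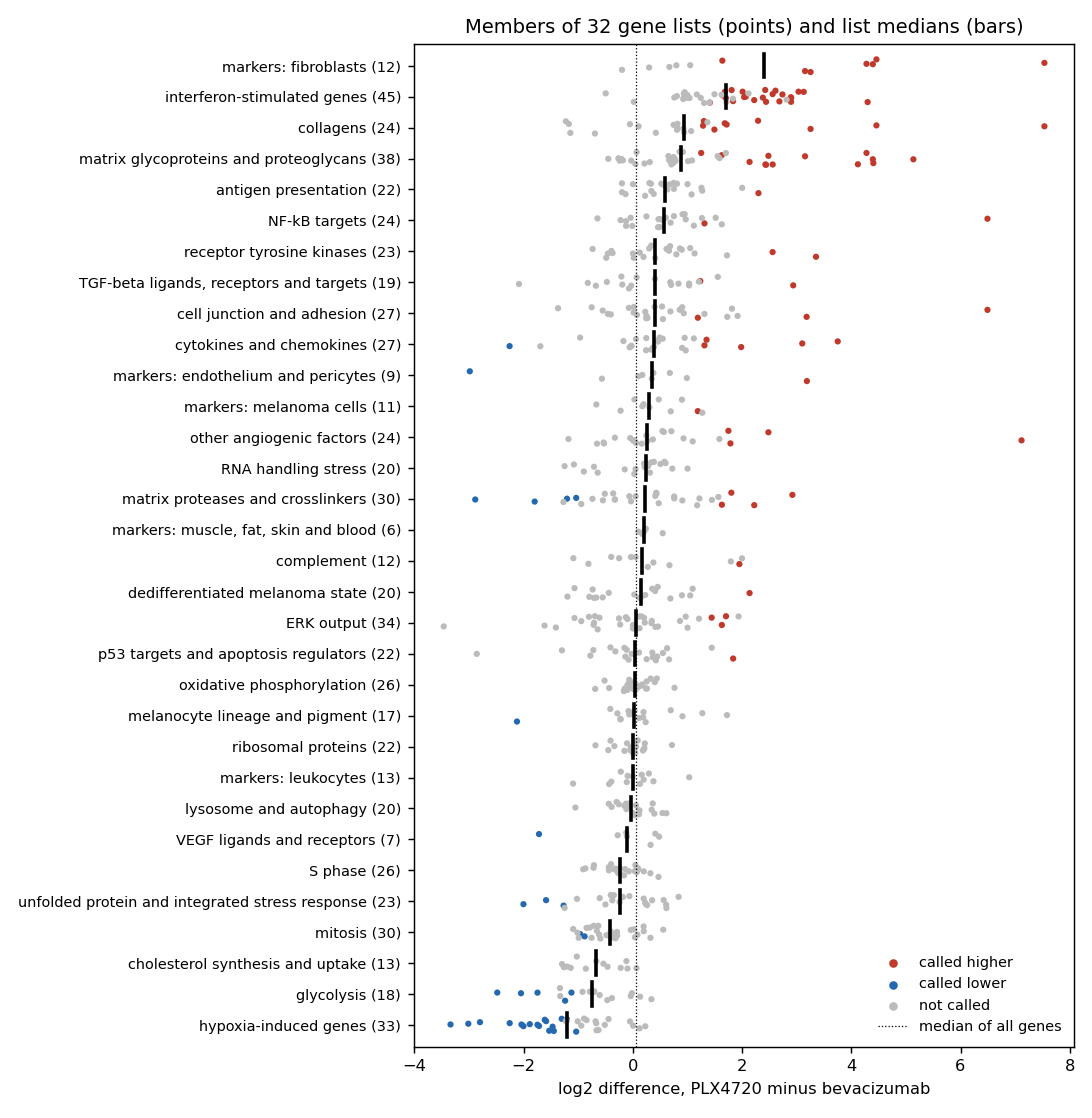
Log2 difference, PLX4720 minus bevacizumab, of the measured members (points) of 32 gene lists, ordered by the list median (black bars), with the number measured in brackets. Called members are red (higher) or blue (lower), the dotted line is the median of all genes, and hypoxia-induced genes lie at the low end and fibroblast markers, interferon-stimulated genes and collagens at the high end.

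Other factors that act on vessels were higher or not called. Of 24, 4 were higher and 0 lower (median 0.26, 2.08% higher over all genes). Besides ANGPTL7 these were THBS2, thrombospondin 2, an inhibitor of angiogenesis, at 9.16, 9.52 and 8.39 against 6.24, 6.56 and 6.83 (2.48 ± 0.33, adjusted p = 0.00351), SERPINF1, the antiangiogenic factor PEDF, at 10.86, 10.12 and 10.60 against 9.39, 8.35 and 8.49 (1.79 ± 0.34, adjusted p = 0.0186), and SEMA3C, a secreted guidance factor (1.75 ± 0.38, adjusted p = 0.0314). For each the arms did not overlap. SERPINF1 was not called without PLX4720 1, bevacizumab 2 or bevacizumab 3 (0.0667, 0.0871 and 0.0776), and SEMA3C was called without PLX4720 2 or PLX4720 3 but without no other single array (adjusted p = 0.05 to 0.0994).

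Among receptor tyrosine kinases 2 of 23 were higher and 0 lower (median 0.41, 2.08% higher over all genes, as for the lists that follow). ROR1, a receptor for Wnt ligands, was at 10.68, 8.15 and 9.40 against 5.93, 6.52 and 5.72 (3.35 ± 0.52, 10.2-fold, adjusted p = 0.00773), and EPHA3, an ephrin receptor, at 11.38, 10.99 and 10.38 against 7.64, 8.65 and 8.78 (2.56 ± 0.36, adjusted p = 0.00512). The dimmer probes of ROR1 gave 2.67 and -0.14, and that of EPHA3 gave 0.74. AXL and EGFR, receptors known from cells that tolerate BRAF inhibition, differed by -0.74 ± 0.42 and 0.41 ± 0.37, and neither passed. A dimmer AXL probe gave -0.93 ± 0.30, and a dimmer EGFR probe gave 0.13. In the TGF-beta family TGFB3, a ligand, was at 9.20, 8.16 and 9.04 against 6.16, 5.45 and 5.97 (2.94 ± 0.39, 7.66-fold, adjusted p = 0.00351) and the coreceptor TGFBR3 differed by 1.23 ± 0.23 (adjusted p = 0.0179), 2 of 19 members with a median of 0.41. TGFBR3 was not called without PLX4720 1, bevacizumab 1 or bevacizumab 2 (0.0609, 0.0502 and 0.0803). The TGFB1 probe was not detected under either drug. The study measured human TGFB1 transcript in A375 xenografts by quantitative PCR, so an undetected probe does not show that the gene was silent. Of 27 junction and adhesion genes 3 were higher (median 0.40): VCAM1, the cadherin CDH11 (3.18 ± 0.55, adjusted p = 0.0129, or 0.0589 without bevacizumab 2) and MCAM, an adhesion molecule of melanoma (1.19 ± 0.26, adjusted p = 0.0326), which was not called without 8 of the 11 single arrays (0.0561 to 0.116).

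Genes of the melanocyte lineage had a median of 0.03 over 17 members. OCA2, a melanosome transporter, was the only one called, below background on all PLX4720 arrays, at 7.69, 6.97 and 7.41 under bevacizumab, and at least 2.96-fold lower (adjusted p = 0.00228). MITF was at 7.99, 7.60 and 7.85 against 6.03, 6.90 and 6.69 and was not called (1.27 ± 0.32, adjusted p = 0.0648), although every PLX4720 array was above every bevacizumab array, and a dimmer MITF probe gave 0.09. SOX10 differed by 0.69 ± 0.37. Among 20 genes of the dedifferentiated melanoma state TNC alone was called (median 0.14), and NGFR, a marker of the neural crest-like state, differed by 0.90 ± 0.53, with PLX4720 3 highest at 8.44.

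Few cell cycle genes were called. In mitosis 2 of 30 were lower (median -0.42, 1.04% lower over all genes), the cyclin CCNA2, at 10.33, 10.18 and 10.27 against 11.07, 11.34 and 11.02 (-0.88 ± 0.20, adjusted p = 0.0355), and the centrosomal kinase NEK2, at 9.01, 8.58 and 8.79 against 9.46, 9.90 and 9.92 (-0.96 ± 0.23, adjusted p = 0.0473). Their arms did not overlap, but CCNA2 was called in only 2 of the 11 fits without 1 array (without PLX4720 2 or 3) and NEK2 in 1 (without bevacizumab 1), with adjusted p = 0.0517 to 0.165 in the others. None of 26 S phase genes was called (median -0.24, RFC3 at -0.91 ± 0.30 with the smallest p). Without PLX4720 3 and bevacizumab 1, 9 mitosis genes were lower and 0 S phase genes were called. Without PLX4720 2 and without PLX4720 3, 2 and 1 S phase genes were lower, and without PLX4720 3, 6 mitosis genes. Median scaling gave 0 of either list, with medians of -0.10 for mitosis and 0.05 for S phase, against 0.24 over all genes in that setting.

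In the unfolded protein and integrated stress response 3 of 23 genes were lower (median -0.24). DDIT3, the stress factor CHOP, was at 9.37, 9.31 and 9.14 against 10.61, 10.54 and 10.47 (-1.27 ± 0.19, adjusted p = 0.00691), and the arms were tight and apart. DDIT4, an inhibitor of mTORC1, was at 11.65, 12.81 and 12.74 against 13.99, 13.82 and 14.15 (-1.59 ± 0.29, adjusted p = 0.0172). VLDLR is the remaining one, and DDIT4 and VLDLR are also among the called genes of the hypoxia list. Under median scaling DDIT3 was not called (adjusted p = 0.065), nor DDIT4 without bevacizumab 2 or 3 (0.0589 and 0.0733). CASP1, the protease of the inflammasome, was the only called gene of 22 p53 targets and apoptosis regulators, at least 3.11-fold higher (adjusted p = 0.00619). Cholesterol synthesis had 0 of 13 called with a median of -0.67, led by INSIG1, a brake on cholesterol synthesis, at -1.30 ± 0.32 (adjusted p = 0.0532). Its dimmer probe gave -1.86, and INSIG1 and IDI1, an isoprenoid enzyme, were each called lower in 7 of 24 alternatives, with up to 3 members called (without PLX4720 3). None of 26 oxidative phosphorylation, 22 ribosomal protein or 20 lysosome genes was called, and their medians were 0.03, -0.00044 and -0.03.

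Few markers of the other host cells were called. None of 13 leukocyte markers was called (median -0.00198, summed signal 4130 to 6410 under PLX4720 and 6190 to 8660 under bevacizumab). PTPRC, TYROBP, CD3E and S100A9 were not detected on any array, AIF1, a macrophage gene, differed by 1.03 ± 0.31 (called under median scaling, adjusted p = 0.0479) and CD68, a lysosomal macrophage marker, by -1.09 ± 0.36. Dimmer CD68 probes gave -0.40 and -2.36, and the mean over its probes was called lower (-1.28, adjusted p = 0.0149). Of 9 markers of endothelium and pericytes RGS5, of pericytes, was higher by at least 7.25-fold (adjusted p = 0.0179) while TIE1 was lower, with summed signals of 3520 to 7200 and 3250 to 4780, while CDH5, VWF, KDR, CLDN5 and ERG were not detected on any array. RGS5 was at 9.37, 9.67 and 6.81 and was lost without PLX4720 1, bevacizumab 2 or bevacizumab 3 (0.0667, 0.0723 and 0.0716). None of 20 genes of RNA handling stress was called (median 0.24), although PLX4720 2 had a list median of 0.90 above vehicle against -0.38 and -0.40 on PLX4720 1 and 3.

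**Figure D4:**
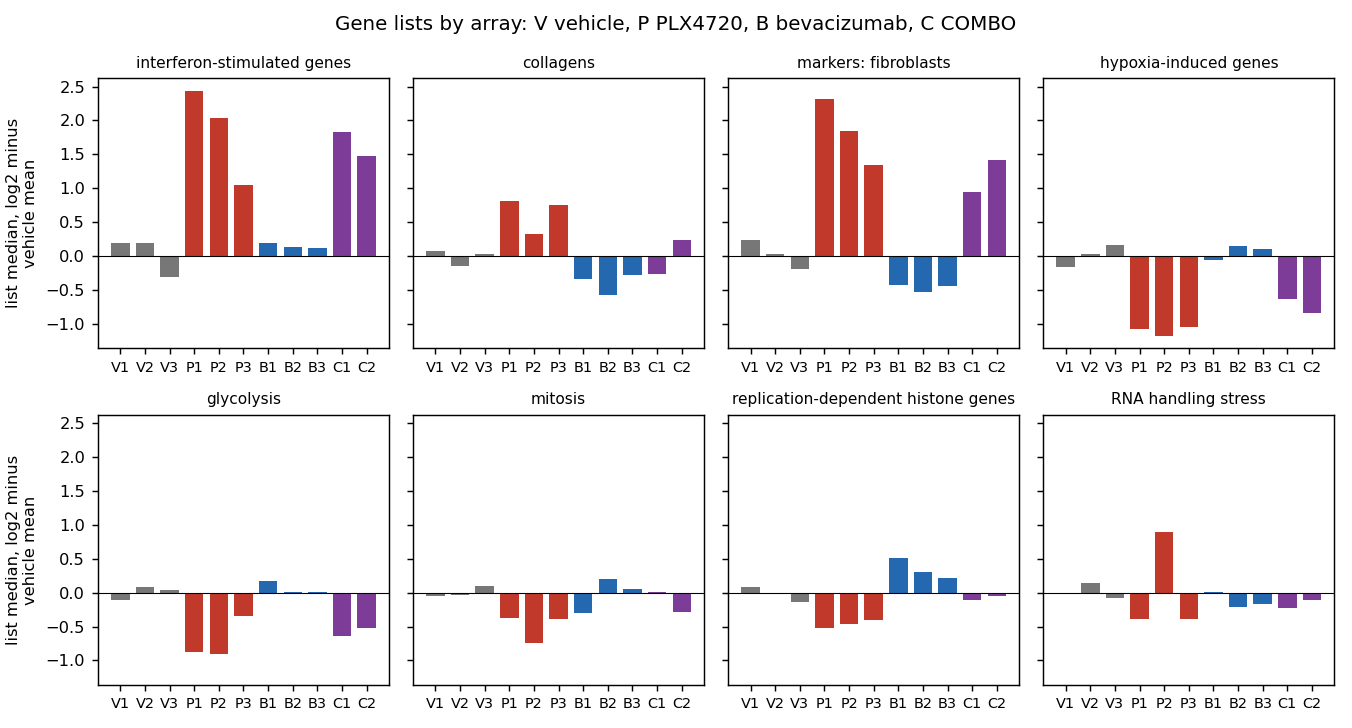
Median of 8 gene groups on each array relative to the vehicle mean (log2 units, bars, no error shown since each bar is 1 array). Interferon-stimulated genes, collagens and fibroblast markers are above every bevacizumab bar on all 3 PLX4720 arrays, hypoxia-induced genes and histone genes below, and the RNA handling stress list is highest on PLX4720 2.

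The number of genes called depended on single arrays. With 1 array left out, between 131 (without bevacizumab 2) and 996 (without PLX4720 2) genes were called. Leaving out PLX4720 3 gave 951 and bevacizumab 3 gave 151, and leaving out a vehicle or COMBO array gave 298 to 347. Of 73 called genes picked by the naming rule, 26 were called in all 24 alternatives, among them COL3A1, VCAM1, ANGPTL7, SCRG1, POSTN, LUM, ISG15, CXCL10, KISS1, ADM, NDRG1, HILPDA, BNIP3 and MMP10. The fit on the 6 single-drug arrays called 31 of the 73 and left 42 above the threshold.

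**Figure D5:**
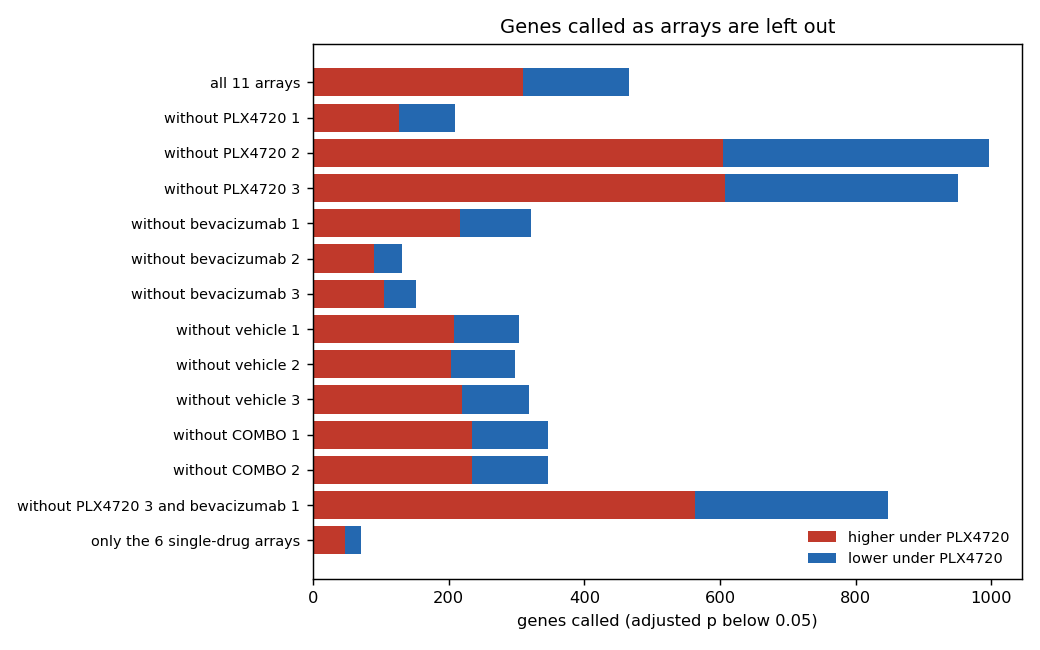
Number of genes called higher (red) or lower (blue) under PLX4720 with all 11 arrays, with each array left out, without PLX4720 3 and bevacizumab 1, and with only the 6 single-drug arrays. The bars run from 70 genes for the 6 arrays alone to 996 without PLX4720 2, beside 465 for all arrays.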

How the data were processed

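RNA from 11 A375 xenografts was hybridised to Illumina HumanHT-12 v4 arrays, which carry 1 colour and 1 sample per array. The authors exported mean bead intensity per probe, not normalized, with GenomeStudio 2011.01, per the file headers and the submitters' processing notes. Beside each intensity the deposited table gives a detection p-value, which sets the probe against control beads that match no transcript. Intensity values after cubic spline normalization by the authors were deposited too, and served as an alternative. The number of arrays limits the precision.

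The R package limma (3.58.1, under R 4.3.3) corrected the background by normexp, with control moments taken back from the detection p-values and an offset of 16, then applied quantile normalization and log2. The platform annotation named a single gene for 30113 of 47323 probes, several genes for 8 and no gene for 17202 (36.4%). Unnamed probes were not used. Symbols were updated by gene ID, probes with a detection p below 0.05 on at least 1 array were kept, and the brightest probe stood for each of 14886 genes (chosen anew when an array was left out). A linear model with 4 arms was fitted to all 11 arrays, and PLX4720 minus bevacizumab was tested with limma's moderated test (eBayes, two-sided, Benjamini-Hochberg adjustment over all genes, threshold 0.05). Every adjusted p in the text is from such a limma fit. Where a probe was undetected on every array of an arm, the fold is a lower bound. The scripts were tested on simulated data. Plots used Python 3.11.15 and matplotlib 3.10.9.

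Members and gene lists were chosen with earlier results of these data known. Genes were named by rule: the 10 largest differences in each direction among called genes with arms that did not overlap, up to 5 called members of each list by p and a few pathway genes. The methods call the replicates biological. No slide or batch was given in the sources used here, so neither could be tested, and no probe coordinates are given. Alternatives were other normalizations, backgrounds, filters, probe summaries and fits, and each array left out in turn. Keeping probes with an array left out, and a second form of the HIF core, were added after seeing the data.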

Additional observations from a re-analysis of the deposited data

How the results depend on the processing

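Of 73 named genes that were called, 26 were called in all 24 alternatives. Against 465 called genes, the fit on the 6 single-drug arrays gave 70, an adjusted p below 0.01 gave 108 and below 0.1 gave 793, and leaving out PLX4720 3 and bevacizumab 1 gave 847. Without 1 array the count ran from 131 (bevacizumab 2) to 996 (PLX4720 2), with 209 without PLX4720 1. The brightest probe was chosen anew each time, which switched it for 38 to 67 genes. With probes kept, a setting chosen after seeing the data, the counts were 309, 300 and 316 without a vehicle array, 213, 993 and 956 without a PLX4720 array, 328, 131 and 149 without a bevacizumab array, and 346 and 347 without a COMBO array. Against 824 genes at the limits of the methods, cubic spline values gave 381, no background correction gave 419, and the fits without 1 array gave 606 to 1294. With the replicate number as a block (replicate block) 300 genes were called, 290 of them among the 465. Deviations of same-numbered arrays from their arm means correlated at -0.351, 0.266 and -0.472. With 3 arrays in each arm such deviations depend on each other, so these values cannot settle whether the numbers pair the arrays. The highest correlation between the arms was 0.626, for PLX4720 3 with bevacizumab 1, and what these arrays shared was not tested. Array weights ended the calls of 8 named genes, NTS (adjusted p = 0.0535), MCAM (0.0546), HK2 (0.0575), CCL2 (0.0644), TGFBR3 (0.0961), CCNA2 (0.105), IFI27 (0.119) and CXCL1 (0.19). The fit with array weights called 418 genes, and the settings for normalization, background, filter and probe choice gave 428 to 498 calls. The cause of these changes was not tested. With 3 arrays in each arm and signals near background in 82 of the higher genes under bevacizumab, the size of many differences is known only as a bound.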

Other observations

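Several gene families outside the lists above were examined after their values had been seen, so the counts below are a description. Histone genes that are transcribed during DNA replication were lower under PLX4720 in 14 of 55 cases and higher in 0 (1.04% and 2.08% over all genes), and 48 of the 55 differences were negative, with a median of -0.74. H4C15, a histone H4 gene, was at 8.68, 9.37 and 8.81 under PLX4720 and at 10.60, 10.57 and 10.51 under bevacizumab (-1.61 ± 0.24, limma adjusted p = 0.00619). H2BC8, a histone H2B gene, was at 7.40, 7.24 and 7.66 against 9.06, 8.67 and 8.61 (-1.35 ± 0.23, limma adjusted p = 0.0126). The arms did not overlap for either. Relative to vehicle the family median was -0.52, -0.46 and -0.40 on the PLX4720 arrays and 0.51, 0.31 and 0.21 on the bevacizumab arrays, so the drugs lay on opposite sides of vehicle. The 14 became 8 without PLX4720 1 or bevacizumab 1, 5 without bevacizumab 2, 7 without bevacizumab 3 and 2 in the fit on the 6 single-drug arrays. Copies of histone genes are nearly identical, and their probes may not tell them apart. How well the labelling of the RNA captured histone transcripts was not tested.

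Among 4 Y RNAs, small noncoding RNAs bound by the Ro protein, 3 were higher under PLX4720 and 0 lower. Over all genes 2.08% were higher and 1.04% lower, the shares to set beside each family of this paragraph. Besides RNY5, RNY4 was at 8.29, 7.63 and 8.73 against 7.33, 6.09 and 5.82 (1.81 ± 0.39, limma adjusted p = 0.0317). RNY1 was at 8.67, 8.81 and 9.60 against 8.19, 6.95 and 6.07 (1.96 ± 0.45, limma adjusted p = 0.0424), and RNY3 differed by -0.53. As for RNY5, how well the labelling captured these RNAs was not tested. Only RNY5 was called when PLX4720 1, PLX4720 3, bevacizumab 2, bevacizumab 3 or any vehicle or COMBO array was left out. Of 5 glypicans, heparan sulphate proteoglycans of the cell surface, 3 were higher and 0 lower. The 3 became 1 without PLX4720 1 or bevacizumab 3 and 2 without PLX4720 2, PLX4720 3 or bevacizumab 2. GPC6 was at 10.00, 10.05 and 9.93 against 8.41, 9.0 and 8.95 (1.21 ± 0.22, limma adjusted p = 0.0175), and its PLX4720 arrays were close together. Of 44 protocadherins, adhesion molecules known from neurons, 6 were higher and 0 lower, with a median of 0.53. The 6 became 2 without PLX4720 1, any bevacizumab array, vehicle 1, vehicle 2 or either COMBO array, 3 without vehicle 3, 8 without PLX4720 2 or PLX4720 3, and 2 with cubic spline values or no background correction. PCDH18 was at 9.34, 9.91 and 8.16 against 5.98, 5.93 and 6.34 (3.05 ± 0.45, limma adjusted p = 0.0067). In the fit on the 6 single-drug arrays 0 glypicans, 2 protocadherins and 1 Y RNA were called.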
